A study of Mus musculus with 2 samples.

Results

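The NRF2 pathway is the main defence of mammalian cells against oxidants and electrophiles. The factor NRF2 (gene Nfe2l2) is held at low levels by KEAP1, which hands it to a ubiquitin ligase; when KEAP1 is modified by oxidants, NRF2 gathers in the nucleus, pairs with a small MAF protein and binds antioxidant response elements in the genes of detoxifying and glutathione-forming enzymes. Nfe2, the founding gene of the same family of cap'n'collar factors, encodes the large subunit of NF-E2 and is known from platelet and red cell formation rather than from brain tumours. The part of the data described here is a set of 10 mouse genes of this system out of 26883 genes named on the array: the factors Nfe2, Nfe2l1 and Nfe2l2, the inhibitor Keap1, and Hmox1, Nqo1, Gclc, Gclm, Srxn1 and Slc7a11, which encode enzymes and a transporter. They were found by gene symbol in the authors' table, through 15 of its 56605 probes. Nfe2 and Hmox1 were chosen by their log2 difference between these same arrays, so their values are a description and support nothing; the other 8 were listed as genes of the pathway.

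The cells were a mouse glioblastoma stem cell line, raised as neurospheres from brain tumours that had been induced with the SB transposon and kept in serum-free medium with EGF and bFGF. The control cells carried a lentiviral non-target shRNA, and the Stat5b-knockdown cells carried a lentiviral shRNA against Stat5b, a signal transducer that cytokine receptors switch on through JAK kinases; both were stable transductants of this line. There was 1 array of each kind, so no spread between cultures was measured, no p-value is given, and each result describes these 2 arrays alone. Whether a difference belongs to the loss of Stat5b or to these particular transduced cells cannot be told apart. As a check of the labels, the brighter Stat5b probe read 1991 in the control and 498 in the knockdown cells, lower in the latter by a log2 difference of -2.0 ± 0.20.

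Below, a difference is the log2 level on the knockdown array minus that on the control array, after each array was set to its own 75th percentile. The figure after ±, called the software error, is combined from the errors that the scanner software assigns to the spots. They were combined over arrays, repeated spots and probes as if independent. The figure therefore shrinks with more probes and leaves out the spread between probes. Measured yardsticks were an SD of 0.0558 for the differences of repeated spots of 1 probe and of 0.310 for those of different probes of 1 gene. A gene was called higher or lower when its difference reached 1 in size, which is 2-fold. Of 16354 genes measured on both arrays, 3.67% were called higher in the knockdown cells and 2.41% were called lower. Above 0 were 51.1% of them and below 0 were 48.9%, with a median of 0.01, and the interquartile range ran from -0.24 to 0.28. Of the labelled cell type's defining markers, Nes, Sox9, Prom1, Cd44 and Msi1 were well above background on both arrays. They differed by -0.20, 0.40, 0.01, -0.09 and -0.10 in that order, and the probes of Prom1, Cd44 and Msi1 went both ways. Sox2 and Fabp7 were well above background on neither array, and Olig2 in the knockdown cells alone, with a difference of at least 4.39-fold. Such a bound sets the brighter signal against the lowest one well above background on the other array, or against the probe's own where that is higher.

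The Nfe2 and Hmox1 results rest on 1 probe each, and the first 30 of the 60 bases of these 2 oligos are therefore shown as the authors' table lists them, 5′ to 3′ and with no base marked. G and C make up 45.0% of the Nfe2 probe and 35.0% of the Hmox1 probe.
Nfe2: attcctccagaccaaaaggcagatgtaacc
Hmox1: gtgggtgggaaagaattattaatagttgta
None of the 15 probes shared a run of 20 bases with a probe of another gene on the array (0 of 15), the 3 family members included. A match of this length is not needed for cross-hybridisation, which was not tested.

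Among the cap'n'collar factors of the set, Nfe2 had the largest difference. Since Nfe2 had been picked for it, nothing is read from this order. Nfe2l3, a further relative outside the set, is given below with the partners. The Nfe2 probe read 394 in the control and 1653 in the knockdown cells, 13.9 and 53.5 times the local background as raw signals. Its difference was 2.07 ± 0.20, 4.19-fold higher in the knockdown cells, and ranked 51 of 16354 from the highest. Nfe2l1 encodes NRF1, a factor of the endoplasmic reticulum membrane that is known for inducing proteasome genes. Its brighter probe read 5290 in the control and 6757 in the knockdown cells, and its dimmer probe read 328 and 376. The differences were 0.35 and 0.19, so both probes were slightly higher in the knockdown cells, and their mean of 0.27 ± 0.14 lay just inside the interquartile range of all genes. Nfe2l2, the gene of NRF2 itself, hardly differed. Its brighter probe gave 11254 in the control and 11348 in the knockdown cells, and the dimmer one, designed to a non-coding variant, gave 542 and 571. The mean difference was 0.04 ± 0.14, and 91.2% of measured genes had a difference larger in size. NRF2 is controlled mainly through its protein, which these arrays do not measure.

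Keap1, the sensor that marks NRF2 for destruction, read 2514 in the control and 2263 in the knockdown cells. Its difference of -0.15 ± 0.20 was smaller than the software error.

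**Figure D1:**
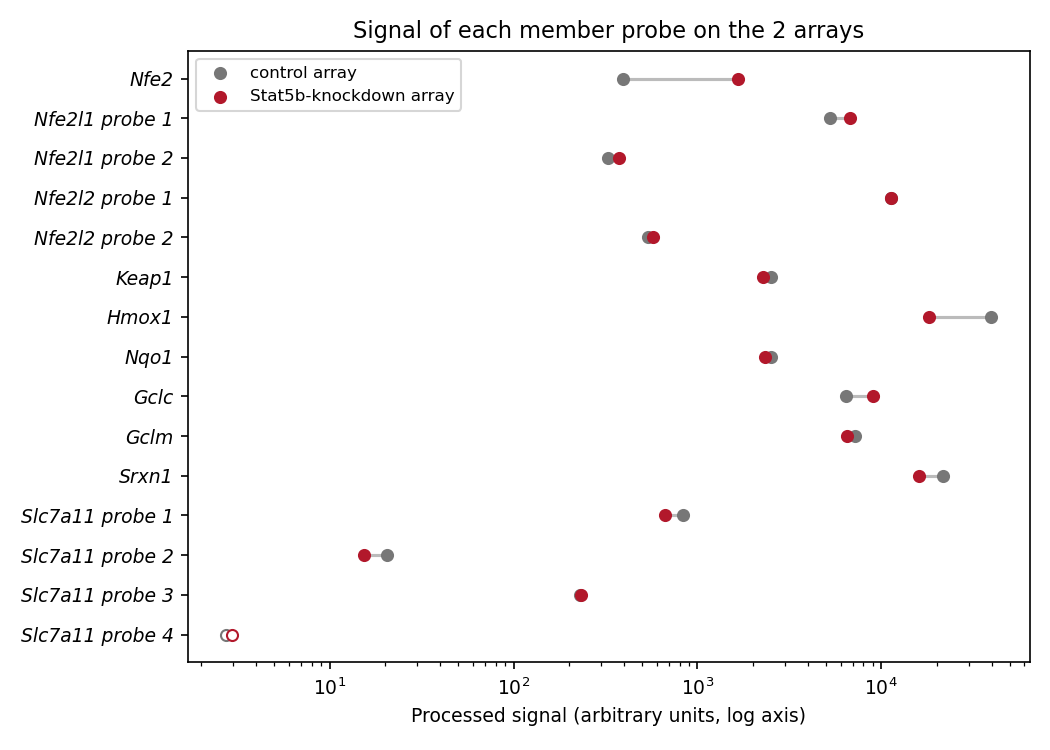
Processed signal of each of the 15 probes (log axis, arbitrary units) on the control array (grey) and the Stat5b-knockdown array (red); open circles mark the Slc7a11 probe not well above background in either sample. The wide gaps are those of Nfe2, from 394 to 1653, and Hmox1, from 39739 down to 18130; probes of different genes are not comparable in level.

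Of the enzyme and transporter genes, 1 was lower by the 2-fold rule and the other 5 were not. Hmox1 encodes the inducible heme oxygenase, which splits heme into biliverdin, iron and carbon monoxide. Its probe read 39739 in the control and 18130 in the knockdown cells, 1114 and 572 times the local background as raw signals, and the spot was not saturated. The difference was -1.13 ± 0.20, 2.19-fold lower in the knockdown cells, and it ranked 268 of 16354 from the lowest. The call stands close to the 2-fold line, which lies within the software error of this value.

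Nqo1, the quinone reductase often used as a readout of NRF2, was not lower beyond the error. Its probe read 2525 in the control and 2320 in the knockdown cells, a difference of -0.12 ± 0.20. The pair of genes for glutamate-cysteine ligase, which makes the first step of glutathione synthesis, differed from each other. Gclc, the catalytic subunit, read 6465 in the control and 9048 in the knockdown cells, with a difference of 0.48 ± 0.20. Gclm, the modifier subunit, read 7161 and 6487, with a difference of -0.14 ± 0.20. The Gclm probe was the 1 probe of the set in the array's last 64 rows, where probes past 2-fold were more frequent (7.53% against 5.42% in the other rows).

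Srxn1 encodes sulfiredoxin, which restores over-oxidised peroxiredoxins. It read 21777 in the control and 16039 in the knockdown cells, a difference of -0.44 ± 0.20, in the same direction as Hmox1 but under 2-fold. Slc7a11 encodes the cystine importer xCT, which feeds glutathione synthesis and is also known as an ATF4 target. Its brightest probe read 838 in the control and 670 in the knockdown cells, the next 231 and 233, and the third, whose raw signal was 1.79 and 1.80 times the local background, 20.5 and 15.4. These 3 probes differed by -0.32, 0.01 and -0.41, with a mean of -0.24 ± 0.16. The remaining Slc7a11 probe, at 2.74 and 2.95, was not well above background in either sample.

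All 10 genes were measured, 7 of them by a single probe, and 14 of the 15 probes were well above background on both arrays. By the 2-fold rule 1 gene was higher and 1 was lower, against 3.67% and 2.41% of all measured genes; since both had been picked for that difference, nothing is read from this count. Of the other 8, 0 passed 2-fold, 3 lay above 0 and 5 below, and their median was -0.13, against 0.01 over all genes. The 3 above 0 were Nfe2l1, Nfe2l2 and Gclc, and 51.1% of all measured genes lay on that side. Within the interquartile range of all genes lay 5 of the 10: Nfe2l1, Nfe2l2, Keap1, Nqo1 and Gclm.

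**Figure D2:**
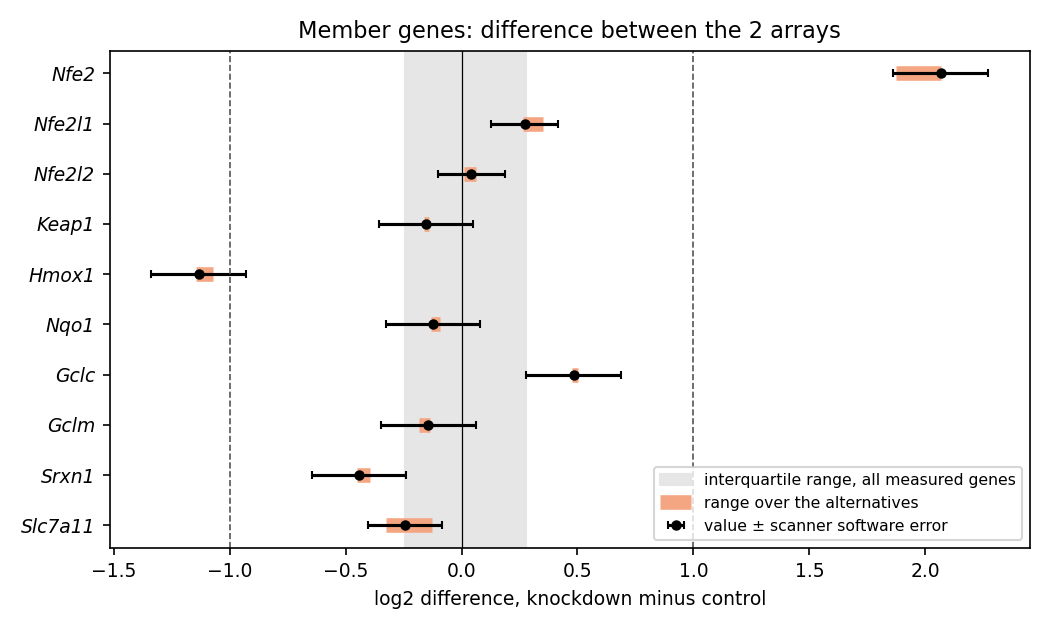
Difference of each of the 10 genes (log2, knockdown minus control) with the scanner software's error as bars, the range over the alternative processings in orange, the interquartile range of all 16354 measured genes in grey (-0.24 to 0.28) and dashed lines at 2-fold. Nfe2 at 2.07 and Hmox1 at -1.13 lie beyond the dashed lines and the other 8 lie between -0.44 and 0.48.

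The partners and competitors of these factors at DNA differed in both directions. The repressor BACH1 occupies the same elements when heme is scarce and is known for silencing Hmox1. Bach1 read 814 in the control and 1239 in the knockdown cells, a difference of 0.60 ± 0.20, under 2-fold and opposite in sign to Hmox1. Maff, one of the small MAF proteins that pair with NRF2, NRF1, NF-E2 and BACH1, read 1557 and 833, a difference of -0.90 ± 0.20. Its relatives differed little, with Mafg at -0.06 ± 0.14 and Mafk at -0.13 ± 0.20. Nfe2l3, a cap'n'collar factor counted in this group, was at 0.28 ± 0.13. Its 3 probes ran from -0.32 to 0.73, and the brightest was the one at -0.32. Of the 6 genes in this group 5 were measured, 2 above and 3 below 0, and 0 passed 2-fold. The group's median was -0.06 (0.08 without the last 64 rows and 0.11 with dim probes kept). Bach2 was not well above background in either sample.

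Genes that set the turnover of NRF2 and the maturation of NRF1 were measured in full (11 of 11), 6 above 0 and 5 below, with a median of 0.02. The one past 2-fold was Pgam5, a mitochondrial phosphatase that binds KEAP1. It read 12443 in the control and 4523 in the knockdown cells, 2.75-fold lower in the latter (-1.46 ± 0.20). Sqstm1 and Gsk3b are described here because of their values. Sqstm1 encodes p62, which draws KEAP1 into autophagy and is itself an NRF2 target; its 3 probes differed by -0.66, -0.79 and -1.16, with a mean of -0.87 ± 0.13. Gsk3b, a kinase that marks NRF2 for a KEAP1-independent ligase, was at 0.86 ± 0.12, but its 4 probes ran from 0.38 to 1.95, and it was past 2-fold, at 1.17, without the last 64 rows. Cul3 and Rbx1, which form the ligase that KEAP1 serves, were at -0.04 ± 0.20 and -0.17 ± 0.14.

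Of 18 listed genes that make, move or break down heme, all measured, 0 passed 2-fold, 8 lay above 0 and 10 below, and the median was -0.05. The extremes were the mitochondrial transporter Abcb6 at 0.26 ± 0.20 and Cpox, the coproporphyrinogen oxidase of heme synthesis, at -0.95 ± 0.20. Hmox2, the constitutive heme oxygenase, was at -0.20 ± 0.14. Blvra and Blvrb, which reduce the biliverdin that heme oxygenases release, were at 0.02 ± 0.14 and -0.10 ± 0.20. Iron storage and export genes, 6 of 6 measured, ranged from -0.20 for the ferritin light chain Ftl1 to 0.49 for the exporter Slc40a1, which was at -0.55 when dim probes were kept. The ferritin heavy chain Fth1 was at 0.00 ± 0.20.

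Further NRF2 targets are given by function. The 6 genes of NADPH-forming enzymes all lay below 0 (a side held by 48.9% of all genes), with a median of -0.22 and 0 past 2-fold. Me1, the cytosolic malic enzyme, was lowest at -0.64 ± 0.14 and the transketolase gene Tkt nearest 0 at -0.02 ± 0.19. The sign of Tkt turned under 6 of the 10 alternatives. Of 4 thioredoxin and peroxiredoxin targets, 1 lay above 0 and the median was -0.22. Thioredoxin (Txn1) was at -0.55 ± 0.20 and Prdx6, a peroxiredoxin with phospholipase activity, at 0.18 ± 0.10. Genes that make and use glutathione, 17 measured of 19, were spread evenly, 9 above and 8 below 0, with a median of 0.06 (-0.03 without the last 64 rows) and 0 past 2-fold. They ran from -0.20 ± 0.22 for Gpx2 to 0.79 ± 0.20 for the secreted peroxidase Gpx3, and the Gpx3 probe lay in the last 64 rows.

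Of 15 measured detoxification and export targets (17 listed), 2 were past 2-fold, both higher in the knockdown cells. Abcc3, an exporter of glutathione and glucuronide conjugates, had a probe reading 276 in the control and 1129 in the knockdown cells, 4.09-fold higher in the latter (2.03 ± 0.20). A second Abcc3 probe was not well above background in either sample, and the gene was at 1.06 with dim probes kept. Aox1, the aldehyde oxidase, read 981 and 2562, 2.61-fold higher (1.38 ± 0.20). The other 13 genes lay between -0.49 and 0.46, and the median of the group was -0.01 (from -0.17 to 0.11 over the alternatives). Among the superoxide dismutases and catalase, Sod3, the extracellular dismutase, was 7.14-fold higher in the knockdown cells (2.84 ± 0.31) from signals of 18.1 and 129, and its difference was 1.18 with normexp. Sod1, Sod2 and Cat lay at -0.29, 0.32 and 0.17.

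Because Slc7a11 also answers to amino acid shortage, 11 genes of that response were set beside it. All were measured and 0 passed 2-fold, 4 lay above 0 and 7 below, and the median was -0.09. They ran from -0.76 ± 0.14 for the asparagine synthetase gene Asns to 0.63 ± 0.20 for the stress-induced Sesn2, and Atf4 was at -0.24 ± 0.14.

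NF-E2 is known for driving globin and platelet genes. Of 8 NF-E2 target genes of blood cells, 3 were measured on both arrays and 0 passed 2-fold. Hba-a1 and Hba-a2, near-identical alpha-globin genes whose probes may share signal, were at 0.54 ± 0.05 and 0.50 ± 0.07, each from signals of at most 150. With normexp these 2 genes were at 0.29 and 0.35, a change larger than the software error. Rab27b was at 0.28 ± 0.16 and turned sign in 2 of its 9 alternatives. Detected in the knockdown cells alone were Tbxas1, the thromboxane synthase, and Casp12. For Tbxas1 this rests on a single probe of 3 (9.78 in the control and 39.7 after knockdown, at least 3.28-fold). For Casp12 it rests on a single probe of 2 (at least 2.19-fold). The other probes of these genes were not well above background in either sample. Tubb1, the platelet tubulin, was detected in the control alone (32.3 against 5.48 after knockdown, at least 2.49-fold), at a spot in the last 64 rows.

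Markers of megakaryocytes and platelets, set beside Nfe2, differed in both directions. Their summed signal over 12 probes was 926 in the control and 1360 in the knockdown cells, while 9 of these probes were well above background in the control and 6 in the knockdown cells. Of 9 genes 6 were measured, 5 above 0, with a median of 0.79 (0.37 with normexp background correction). Gp1bb was at 1.06 ± 0.30 from signals of 18.8 and 39.1, and was under 2-fold with 3 of its 9 alternatives. Given after their values were seen, Pf4 (platelet factor 4) read 297 and 532, and Itga2b (the integrin chain of platelets) read 25 and 46.4, a difference of 0.89 (0.31 with normexp). Vwf, the von Willebrand factor gene, was lowest at -0.04 (-0.78 with dim probes kept), and its other 2 probes were well above background in the control alone. Tubb1, described above, is on this list too. The defining platelet genes Gp9 and Gp1ba were not well above background in either sample. In bulk RNA, fewer cells of a type and less RNA per cell cannot be told apart, and the part of such cells in the Nfe2 value was not tested.

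Erythroid markers had a summed signal of 2386 in the control and 1863 in the knockdown cells over 12 probes, and went both ways. Of 10 genes 5 were measured, 3 above and 2 below 0, from -0.51 ± 0.15 for the erythropoietin receptor Epor to Hba-a1. Hbb-bt, Alas2 and Slc4a1 were not well above background in either sample. Microglia and myeloid markers summed to 13025 and 13885 over 21 probes. Of 10 genes 5 were measured, from -0.48 ± 0.12 for the lysosomal gene Cd68 to 0.55 ± 0.20 for Ptprc. The Ptprc value rests on 1 of its 7 probes, in the last 64 rows. The median of these markers was 0.11 (-0.03 without those rows). Aif1, Cx3cr1, C1qa, Tyrobp and Spi1 were not well above background in either sample. Neural and glioma stem cell markers summed to 37776 and 37459, with 5 of 8 genes measured and a median of -0.09 (up to 0.18, with the brightest probe).

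**Figure D3:**
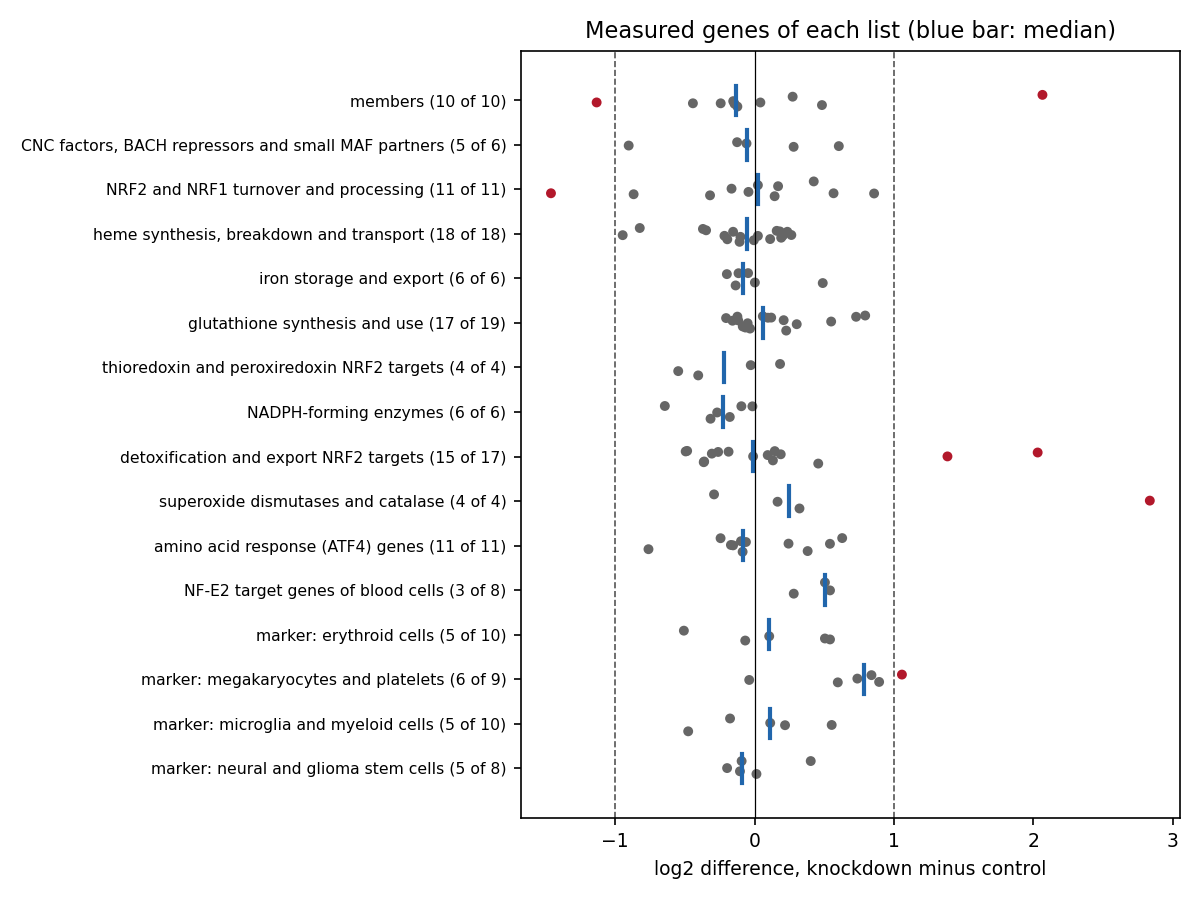
Difference (log2, knockdown minus control) of each measured gene, 1 point per gene, by list, with the number measured of those listed, the list's median as a blue bar, points past 2-fold in red and dashed lines at 2-fold. Points beyond 2-fold are few and scattered over lists: Nfe2, Hmox1, Pgam5, Abcc3, Aox1, Sod3 and Gp1bb.

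The start sites of these genes were looked at for the letters that the factors are known to bind, since 7 of the 10 genes have an entry in the RefSeq promoter table of GRCm38.p6. Nfe2, Hmox1 and Gclc have none. The windows run from 250 bases before to 50 bases after the start, and both strands were searched. Sequence outside the windows was not searched, so a gene without a match may still hold a site elsewhere. The antioxidant response element core TGACNNNGC matched in Nfe2l2, Gclm and Srxn1 and in 12.4% of all 32851 promoter windows. The core TGACTCA, shared by NF-E2 and AP-1, matched at 2 places in Srxn1 and in 5.20% of all windows. The longer NF-E2 letters TGACTCAGC, which contain it, matched in none of the 11 windows of these genes (0 of 11) and in 0.454% of all. They were searched in this spelling and its reverse complement alone. In Srxn1 the match nearer the start reads TGAGTCA followed by gc, a spelling that was not searched. The 0 therefore does not show that Srxn1 lacks a longer site. The STAT5 site TTCNNNGAA, the letters that the knocked-down factor is known for, matched in Slc7a11 and in 8.30% of all windows. The stretches that hold matches before the start are shown 5′ to 3′ on the gene's strand, with the match in capitals: for Srxn1 the TGACTCA core (reading as its reverse complement) at chr2:152105404-152105503 on the plus strand, for Gclm the antioxidant core at chr3:122245403-122245452 on the plus strand, for Nfe2l2 the antioxidant core at chr2:75704874-75704913 on the minus strand, and for Slc7a11 the STAT5 letters at chr3:50443767-50443816 on the minus strand.
Srxn1: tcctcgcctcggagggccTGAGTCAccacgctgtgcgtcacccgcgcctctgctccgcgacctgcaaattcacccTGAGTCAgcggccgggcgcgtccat
Gclm: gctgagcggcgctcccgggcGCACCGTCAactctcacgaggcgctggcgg
Nfe2l2: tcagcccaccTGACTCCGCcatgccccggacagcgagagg
Slc7a11: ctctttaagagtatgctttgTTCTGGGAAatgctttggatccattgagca
A match describes letters in these windows. The matched genes lay at -0.44 (Srxn1), -0.14 (Gclm), 0.04 (Nfe2l2) and -0.24 (Slc7a11), and none of them passed 2-fold.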

How the data were processed

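RNA of 1 control and 1 Stat5b-knockdown culture was labelled with Cy3 and hybridised to 1-colour arrays, per the labels. The deposited intensity values were read with Agilent Feature Extraction 12.1.0.3, per the file headers, and hold a background-corrected processed signal, its software error and flags of 0 or 1. The authors' deposited log2 table equals log2 of that signal minus 1 constant per array (8.94 and 8.94; 100% of single-spot probes within 0.001). Its column medians are -3.83 and -3.83. Its direction is therefore known.

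Here signals under 1 were set to 1, spots flagged as outliers (112 and 94) were dropped, and log2 values were set to each array's 75th percentile (signals of 493 and 494). Well above background were 59.5% and 58.6% of probes, and 0 spots were saturated. Gene values average the probes flagged well above background in both samples. Besides Gclm and Gpx3, the listed genes Abcb6, Fth1, Itga2b, Mafg, Ptprc and Sod2 were measured in the last 64 rows alone. So were Aldh1a1, Flvcr2, Gata1, Mgst1 and Slc7a5. The error after ± is combined from the software's spot errors, mostly proportional to signal, and is no spread between probes or cultures. The array number limits the precision. Gene names came from accessions and the GRCm38.p6 gene table, the headers naming mm9. Alternatives used limma 3.58.1 (normexp, offset 50) and Python 3.11.15. The steps were run on simulated data made from the control array, with known shifts and noise smaller than the spread between probes. That run checked the code alone, and not how well real differences are called.

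The 10 genes and the lists were chosen with earlier results of these data known. Named are all 10 genes and, of each list, those past 2-fold or with a bound of at least 2-fold, else the highest and lowest; other genes named in the text were chosen after their values were seen.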

Additional observations from a re-analysis of the deposited data

How the results depend on the processing

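Each of the 10 alternatives was run on every gene. The 99 values of the 10 genes under them kept the sign of the main value, and none moved by more than the software error. Nfe2 ranged from 1.88 to 2.07 and Hmox1 from -1.15 to -1.07, both past 2-fold under all 10 alternatives, and the other 8 genes stayed under 2-fold under each; Gclm has no value without the last 64 rows. Counts over all genes depended on dim probes. The number at least 2-fold higher, 600 of 16354 genes, became 190 with normexp and 272 with raw median signals, of as many genes. It was 1282 of 26878 genes without the filter on dim probes and 163 of 9473 among brighter probes. The number at least 2-fold lower, 394, became 168, 202, 1000 and 198 of the same sets of genes. Keeping dim probes also moved the median of all genes to 0.10 and Stat5b to -1.49, by adding its dimmer probe. Of 158 medians over 16 lists, 21 moved by more than the SD between probes divided by the root of the number of genes, and 16 changed sign. No paired analysis was possible because each group holds 1 array. Choices were not ranked, and 1 probe for most genes and 1 culture per group set the limit.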

Other observations

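The chromosomal neighbours of Nfe2 and Hmox1 were read after their values were seen, by gene order alone. On either side of Nfe2, the splicing factor gene Hnrnpa1 was at -0.62 ± 0.12 and Copz1, a coatomer subunit, at 0.36 ± 0.20. The next genes outward were Cbx5, a heterochromatin protein, at -0.35 ± 0.14 and the receptor gene Gpr84 at 0.61 ± 0.24. These 4 went both ways. Since Nfe2 had been picked for its difference, nothing is read from how they compare with it, and a shared regional cause was not tested. Beside Hmox1, Tom1, an endosomal sorting gene, was at -0.15 ± 0.12 and Mcm5, a subunit of the replicative helicase, at -0.30 ± 0.20, with Hmgxb4 at 0.05 ± 0.15 and Rasd2 at 0.58 ± 0.38 beyond them.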
